A study of Mus musculus with 6 samples.

Results

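The tumor necrosis factor (TNF) ligand and receptor superfamilies were followed in HC11 cells cultured with or without BMP7. Members were taken by gene symbol as *Tnfsf* or *Tnfrsf* followed by a number, together with the older names *Tnf*, *Lta*, *Ltb*, *Fasl*, *Cd70* and *Eda* for ligands and *Fas*, *Cd40*, *Cd27*, *Ltbr*, *Edar* and *Eda2r* for receptors. This gave 43 of the 55809 genes counted, 17 ligands and 26 receptors. HC11 is a mouse mammary epithelial cell line, and both groups were cultures of this 1 line, with no genetic change named. The 3 BMP7 libraries came from medium with BMP7 protein and the 3 Ctrl libraries from medium without it, and the study stimulated the line in order to look for genes that respond to BMP7. The methods describe starved HC11 cells and a short and a longer stimulation, and do not say which of them was sequenced. Nothing in the labels says that the libraries came from separate cultures, so the p-values measure the spread between these libraries, which may be technical. Libraries carry the numbers of their columns in the counts, which for BMP7 are 1, 3 and 4.

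TNF superfamily ligands are mostly trimeric proteins made at the cell surface, from which many are released by proteases. Their receptors carry cysteine-rich repeats outside the cell and signal in different ways. Receptors with a death domain recruit TRADD or FADD and can start caspase cleavage, receptors without one bind TRAF adaptors and act mainly through NF-kB and JNK, and decoy or soluble receptors bind ligand without a full signal. In the mammary gland the family is best known for RANKL (*Tnfsf11*) and its receptor RANK (*Tnfrsf11a*), which carry the progesterone signal to alveolar progenitors and are held back by the soluble receptor osteoprotegerin (*Tnfrsf11b*).

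Of the 43 members, 22 had enough counts to be tested (4 ligands and 18 receptors), and 7 of these passed the threshold, an adjusted p under 0.05 in edgeR's quasi-likelihood test and a fold change above 1.2. The ligand *Tnfsf10* and the receptors *Tnfrsf13c*, *Tnfrsf11b*, *Tnfrsf18* and *Tnfrsf25* rose with BMP7, 5 of 22, where 5.99% of all 15733 genes tested rose. The ligand *Tnfsf13* and the receptor *Tnfrsf1b* fell, 2 of 22, where 5.38% of all genes tested fell. The BMP7 libraries did not overlap the Ctrl libraries for 12 members, 8 of them above and 4 below, beside 29.8% of all genes tested. Members that were tested passed a filter on low counts, so these shares describe the expressed members. The median log2 fold change was 0.11 over the 22 members, 0.11 over the receptors and -0.27 over the 4 ligands, and -0.0062 over all genes tested. An exact permutation test of 3 libraries against 3 cannot go below a two-sided p of 0.1, which the 12 members without overlap reached, 7 past the threshold and 5 not.

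**Figure D1:**
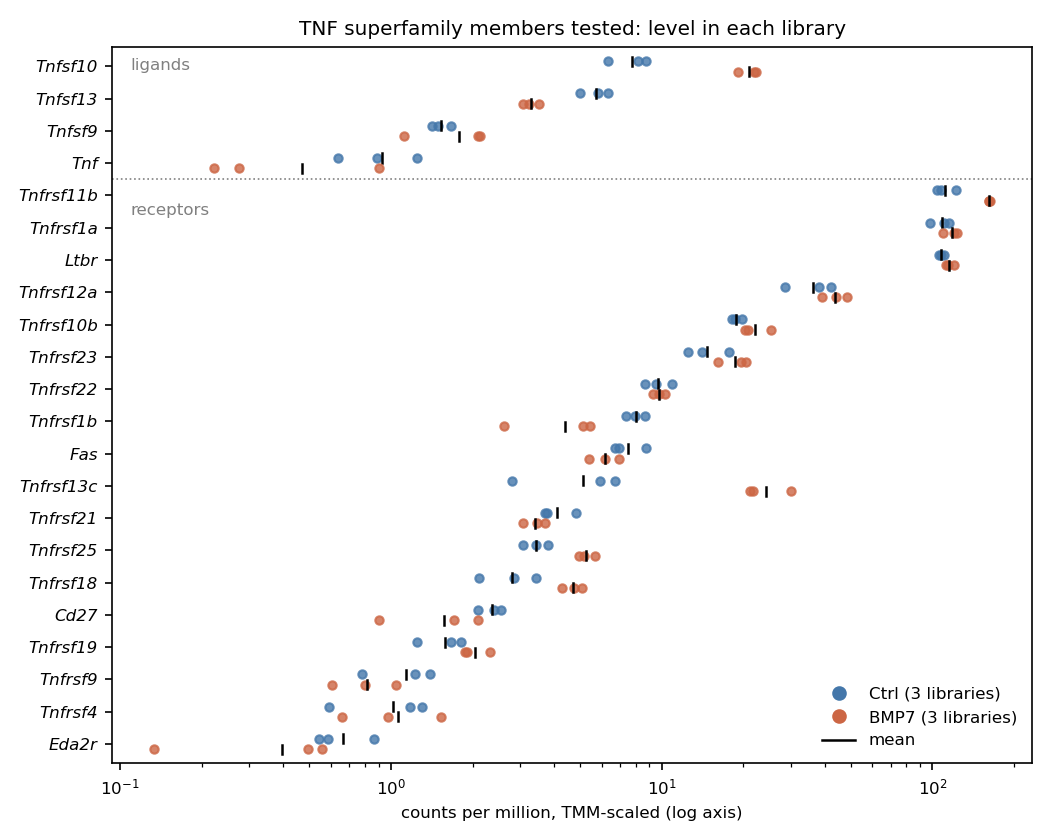
Level of each of the 22 tested members in each library, in CPM (counts scaled to the TMM-adjusted library size) on a log axis. Each dot is 1 library and the black mark is the mean of a group's 3 libraries. *Tnfsf10* and *Tnfrsf13c* show the widest separation upward, while *Tnfsf13* and *Tnfrsf1b* lie lower in all 3 BMP7 libraries.

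The total of counted fragments was 19858701 to 20327200 in the Ctrl libraries and 14607938 to 23748970 in the BMP7 libraries, with the fewest in BMP7 replicate 1, so that 1 count was worth 0.0445 to 0.0697 CPM. Epithelial markers were abundant. The luminal list (7 genes, led by *Epcam* and *Cdh1*) summed to 1738 to 1759 CPM in Ctrl and 1399 to 1423 CPM with BMP7, and the basal list (6 genes, led by *Krt14* and *Krt5*) to 6534 to 6668 CPM and 7469 to 8902 CPM. *Krt18* (log2 fold change -0.67), *Epcam* (-0.42) and *Cdh1* (-0.27) fell, while *Krt8* (0.09), *Elf3* (0.13) and *Cldn4* (-0.68) did not pass the threshold. *Krt19* was not tested. *Krt14* (0.43), *Krt17* (0.89) and *Trp63* (0.64) rose, while *Krt5* (-0.03), *Acta2* (-1.23) and *Myh11* (1.52) did not pass. BMP7 replicates 3 and 4 stood apart from the other 4 libraries in some macrophage markers and in adipocyte markers. The 10 macrophage markers summed to 46.4 to 50.1 CPM in Ctrl and 47.3 CPM in BMP7 replicate 1, but to 24.8 and 23.2 CPM in BMP7 replicates 3 and 4. *Lyz2* carried most of this difference, at 25.5 to 26.6 CPM in Ctrl and 22.5, 6.76 and 6.94 CPM in BMP7 replicates 1, 3 and 4, and *Ptprc*, *Csf1r*, *Adgre1* and *Itgam* were also low in BMP7 replicates 3 and 4. *Cd68* was higher in every BMP7 library than in Ctrl (12.4 to 15.6 against 10.9 to 11.6 CPM), and *C1qa*, *C1qb*, *C1qc* and *Mrc1*, each under 1 CPM, were not lower in BMP7 replicates 3 and 4 than in all other libraries. The 6 adipocyte markers summed to 9.59 to 16.5 CPM in Ctrl and to 18.9, 58.2 and 52.5 CPM in BMP7 replicates 1, 3 and 4. T cell markers summed to at most 0.787 CPM and the 3 B cell markers to at most 0.667 CPM in any library. The 5 fibroblast markers summed to 110 to 121 CPM in Ctrl and 96.2, 111 and 109 CPM in BMP7 replicates 1, 3 and 4. Within that sum *Col1a2* (log2 fold change 1.65) and *Dcn* (1.67) rose and *Col1a1* (-0.41) fell. *Col1a2* was higher in all BMP7 libraries, at 3.76, 5.78 and 3.80 CPM in BMP7 replicates 1, 3 and 4. *Dcn* was at 1.74 CPM in BMP7 replicate 1, next to 1.73 CPM in Ctrl replicate 1, and at 4.44 and 4.90 CPM in BMP7 replicates 3 and 4. The 4 endothelial markers, nearly all of it from *Pecam1*, summed to 13.2 to 15.9 CPM in Ctrl and 24.0 to 26.3 CPM with BMP7. Calls of members and pathway genes that change without BMP7 replicates 3 and 4 are given both ways.

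*Tnfsf10* and *Tnfrsf13c* were the 2 members past the threshold whose change was above 2-fold. The promoter windows of both are shown because these genes carry the largest differences between the groups. They span 250 bases before to 50 bases after the RefSeq start on GRCm38.p6, *Tnfsf10* at chr3:27316827-27317126 on the plus strand and *Tnfrsf13c* at chr15:82224331-82224630 on the minus strand, written 5′ to 3′ along the gene with every match to the Smad4 motif CAGAC or its reverse GTCTG in capitals.
Tnfsf10: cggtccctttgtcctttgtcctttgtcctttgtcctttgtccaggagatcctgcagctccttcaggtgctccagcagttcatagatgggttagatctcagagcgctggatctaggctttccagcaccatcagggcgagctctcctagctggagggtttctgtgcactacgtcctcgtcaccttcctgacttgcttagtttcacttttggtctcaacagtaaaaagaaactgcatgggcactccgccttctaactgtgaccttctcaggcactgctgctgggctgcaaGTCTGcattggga
Tnfrsf13c: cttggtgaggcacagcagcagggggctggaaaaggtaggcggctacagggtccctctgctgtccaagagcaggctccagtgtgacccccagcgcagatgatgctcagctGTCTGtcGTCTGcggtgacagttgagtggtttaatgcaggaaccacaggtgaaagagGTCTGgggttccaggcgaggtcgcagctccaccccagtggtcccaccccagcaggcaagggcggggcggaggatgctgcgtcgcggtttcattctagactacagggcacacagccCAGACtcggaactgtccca
CAGAC was searched on both strands together with the GC-rich Smad site GGCGCC, the Smad palindrome GTCTAGAC and the NF-kB site GGACTTTCC, and none of these 4 overlapped another. The *Tnfsf10* window held 1 CAGAC match and the *Tnfrsf13c* window 4, and 49.6% of all 32851 RefSeq windows of this length held at least 1. The share of windows with as many as 4 was not counted. Of the members that fell, *Tnfrsf1b* held 1 match and *Tnfsf13* held 0. *Tnfrsf18*, which rose, held 2, and windows 1 and 2 of *Tnfrsf25*, which also rose, held 1 and 2. Neither window held GGCGCC, GTCTAGAC or GGACTTTCC, which were in 11.9%, 0.213% and 0.344% of all windows. RefSeq windows were matched for 34 of the 43 members and for 6 of the 7 members past the threshold, the exception being *Tnfrsf11b*. These letters describe the windows and were not tested against binding.

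Among the ligands, *Tnfsf10* encodes TRAIL, which binds death receptors and can kill sensitive cells. It was counted at 8.19, 6.34 and 8.75 CPM in Ctrl replicates 1, 2 and 3 and at 19.2, 21.9 and 22.2 CPM in BMP7 replicates 1, 3 and 4. Every BMP7 library was above every Ctrl library. The mean rose from 7.76 ± 1.26 CPM (SD, n = 3) to 21.1 ± 1.66 CPM (SD, n = 3), a log2 fold change of 1.44 (SE 0.12, 95% interval 1.18 to 1.71), with an adjusted p of 4.84e-07 in edgeR's test after Benjamini-Hochberg adjustment. The log2 fold change stayed between 1.32 and 1.54 with any 1 library left out. In BMP7 replicate 1 alone, without the libraries that differed in macrophage and adipocyte markers, it was 1.30. No other gene that was tested lay within 100 kb of *Tnfsf10*, which the counts place at chr3:27371177-27396576 on mm39.

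*Tnfsf13* encodes APRIL, a B cell survival factor that binds TACI and BCMA. Its level was 6.36, 5.80 and 4.99 CPM in Ctrl replicates 1, 2 and 3, and 3.07, 3.24 and 3.53 CPM in BMP7 replicates 1, 3 and 4. The Ctrl libraries were all higher than the BMP7 libraries. The log2 fold change was -0.80 (SE 0.17, 95% interval -1.17 to -0.43) with an adjusted p of 0.00502. It remained past the threshold in all 6 fits that left out 1 library. With BMP7 replicates 3 and 4 both left out the log2 fold change was -0.90 and the adjusted p 0.0535, in a range of 0.000504 to 0.0535 over all alternatives. *Tnfsf13* shares 983 of its 1637 exon bases with the read-through gene *Tnfsfm13*, which joins *Tnfsf12* to *Tnfsf13* on the same strand. Fragments that fell on both genes were not counted, so its counts cover only the remaining exon bases and are uncertain as a level of APRIL messenger RNA. *Tnfsfm13* itself was at 0 to 24 counts per library, with a log2 fold change of -1.05 (adjusted p = 0.280). None of the other 11 genes tested within 100 kb of *Tnfsf13* passed the threshold.

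The other ligands tested were *Tnf* and *Tnfsf9*. *Tnf*, the founding ligand of the family, was at 26, 18 and 13 counts in Ctrl replicates 1, 2 and 3 and at 13, 5 and 5 counts in BMP7 replicates 1, 3 and 4. BMP7 replicate 1 lay within the Ctrl libraries, while BMP7 replicates 3 and 4 lay below them. The log2 fold change was -1.09 (95% interval -2.17 to -0.01), and the adjusted p of 0.186 in edgeR's test did not pass. Without BMP7 replicate 1 the log2 fold change was -1.88 and the adjusted p 0.0337 in edgeR's test. In that fit *Tnf* passed the filter on low counts through its Ctrl counts alone, so this p-value gives no support for a fall. In BMP7 replicate 1 alone the log2 fold change was -0.03. The macrophage markers *Lyz2*, *Ptprc*, *Csf1r*, *Adgre1* and *Itgam* were low in the same 2 BMP7 libraries, while the other 5 of the list were not, and the part of these markers in the *Tnf* values was not tested. In bulk RNA, fewer cells of a type and less RNA per cell cannot be told apart. *Tnfsf9*, which encodes the ligand of 4-1BB, had a log2 fold change of 0.25 (95% interval -0.39 to 0.88, adjusted p = 0.656) and shares 14.9% of its exon bases with a gene on the opposite strand.

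The remaining 13 ligands had at most 12 counts in any library and were not tested. *Cd70*, *Tnfsf11* and *Tnfsf4* had no count in any library, which allows up to 3 counts in each. *Fasl*, *Tnfsf14*, *Tnfsf18* and *Tnfsf8* had at most 2 counts in any library, and *Lta*, *Ltb*, *Tnfsf12* and *Tnfsf15* at most 5. *Tnfsf12*, which encodes TWEAK, shares 48.3% of its exon bases with *Tnfsfm13*. *Tnfsf13b*, which encodes the B cell survival factor BAFF, had 1, 11 and 11 counts in Ctrl replicates 1, 2 and 3 and 3, 1 and 3 counts in BMP7 replicates 1, 3 and 4. *Eda*, the ligand ectodysplasin of hair, tooth and gland development, had 10, 3 and 12 counts in Ctrl replicates 1, 2 and 3 and 0, 1 and 0 counts in BMP7 replicates 1, 3 and 4.

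The receptor with the largest change was *Tnfrsf13c*, which encodes the BAFF receptor of B cells and signals through TRAF3. It was counted at 6.69, 2.80 and 5.92 CPM in Ctrl replicates 1, 2 and 3 and at 21.7, 30.0 and 21.3 CPM in BMP7 replicates 1, 3 and 4. Every BMP7 library lay above the highest Ctrl library, and Ctrl replicate 2 was the lowest. The mean rose from 5.14 ± 2.06 CPM (SD, n = 3) to 24.3 ± 4.90 CPM (SD, n = 3), a 4.75-fold change. In edgeR's test the log2 fold change was 2.25 (SE 0.21, 95% interval 1.80 to 2.69) and the adjusted p 1.23e-06. The log2 fold change was 1.95 to 2.49 with any 1 library left out and 2.07 in BMP7 replicate 1 alone. The B cell markers *Cd79a*, *Cd79b* and *Ms4a1* had at most 8 counts in any library and none of the 3 was tested. Their summed level was 0.433 to 0.442 CPM in Ctrl and 0.627, 0.667 and 0.441 CPM in BMP7 replicates 1, 3 and 4. The 4 genes tested within 100 kb of *Tnfrsf13c*, which the counts place at chr15:82105944-82108570 on mm39, did not pass the threshold. The nearest of them, *Cenpm*, differed by 0.12 in log2 fold change (adjusted p = 0.332). On the TPM scale, in which counts are divided by exon length and set to a fixed total per library, *Tnfrsf13c* moved from 6.87 TPM in Ctrl to 29.8 TPM with BMP7, which took it from place 9 to place 5 among the 22 members tested.

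Of the 16 receptors grouped as TRAF binding, 10 were tested, *Tnfrsf13c* among them, and 2 rose and 1 fell. Of all genes tested, 5.99% rose and 5.38% fell. *Tnfrsf18*, which encodes the T cell costimulatory receptor GITR, was at 2.12, 3.44 and 2.84 CPM in Ctrl replicates 1, 2 and 3 and at 5.09, 4.76 and 4.30 CPM in BMP7 replicates 1, 3 and 4. The groups did not overlap, and the log2 fold change was 0.75 (SE 0.21, 95% interval 0.31 to 1.19) with an adjusted p of 0.0232 in edgeR's test. The call was lost without Ctrl replicate 1 (log2 fold change 0.58, adjusted p = 0.106), Ctrl replicate 3 (0.76, adjusted p = 0.0550), BMP7 replicate 1 (0.70, adjusted p = 0.0547) or BMP7 replicate 3 (0.74, adjusted p = 0.0688). Over all alternatives the adjusted p ran from 0.00518 to 0.106, and with BMP7 replicates 3 and 4 both left out it was 0.0941. *Tnfrsf18* shares 27.2% of its exon bases with *Gm16008* on the opposite strand. Strand was not used and fragments on more than 1 gene were skipped, so fragments on the shared bases were counted for neither gene. The *Tnfrsf18* counts cover only its remaining exon bases. Within 100 kb, 3 of the 10 other genes tested also rose, *C1qtnf12*, *Ttll10* and *9430015G10Rik*, beside 5.99% of all genes tested. The neighbouring receptor *Tnfrsf4* (OX40) had a log2 fold change of 0.02 (95% interval -0.83 to 0.86).

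*Tnfrsf1b* encodes TNFR2, the TNF receptor without a death domain, which is common on immune cells. It was at 7.99, 8.70 and 7.38 CPM in Ctrl replicates 1, 2 and 3 and at 5.44, 2.62 and 5.12 CPM in BMP7 replicates 1, 3 and 4. All BMP7 libraries were below all Ctrl libraries, with BMP7 replicate 3 the lowest. The log2 fold change was -0.90 (SE 0.21, 95% interval -1.35 to -0.46) with an adjusted p of 0.00823. The call was lost without Ctrl replicate 2 (-0.84, adjusted p = 0.0543). With BMP7 replicates 3 and 4 left out the log2 fold change was -0.56 and the adjusted p 0.124, in a range of 2.10e-06 to 0.124 over all alternatives. Of the 10 macrophage markers, *Lyz2*, *Ptprc*, *Csf1r*, *Adgre1* and *Itgam* were low in BMP7 replicates 3 and 4, and *Cd68* was higher with BMP7. In BMP7 replicate 1 *Tnfrsf1b* was also below Ctrl, and the summed level was at that of Ctrl. There *Lyz2* (22.5 against 25.5 to 26.6 CPM) and *Ptprc* (3.21 against 3.59 to 3.90 CPM) were below every Ctrl library. So were *Itgam* (0.836 against 0.885 to 1.25 CPM) and *C1qc* (0.209 against 0.295 to 0.587 CPM). *Cd68* was above them (15.6 against 10.9 to 11.6 CPM), and the other markers lay within Ctrl. The part of these markers in the fall of *Tnfrsf1b* was not tested.

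**Figure D2:**
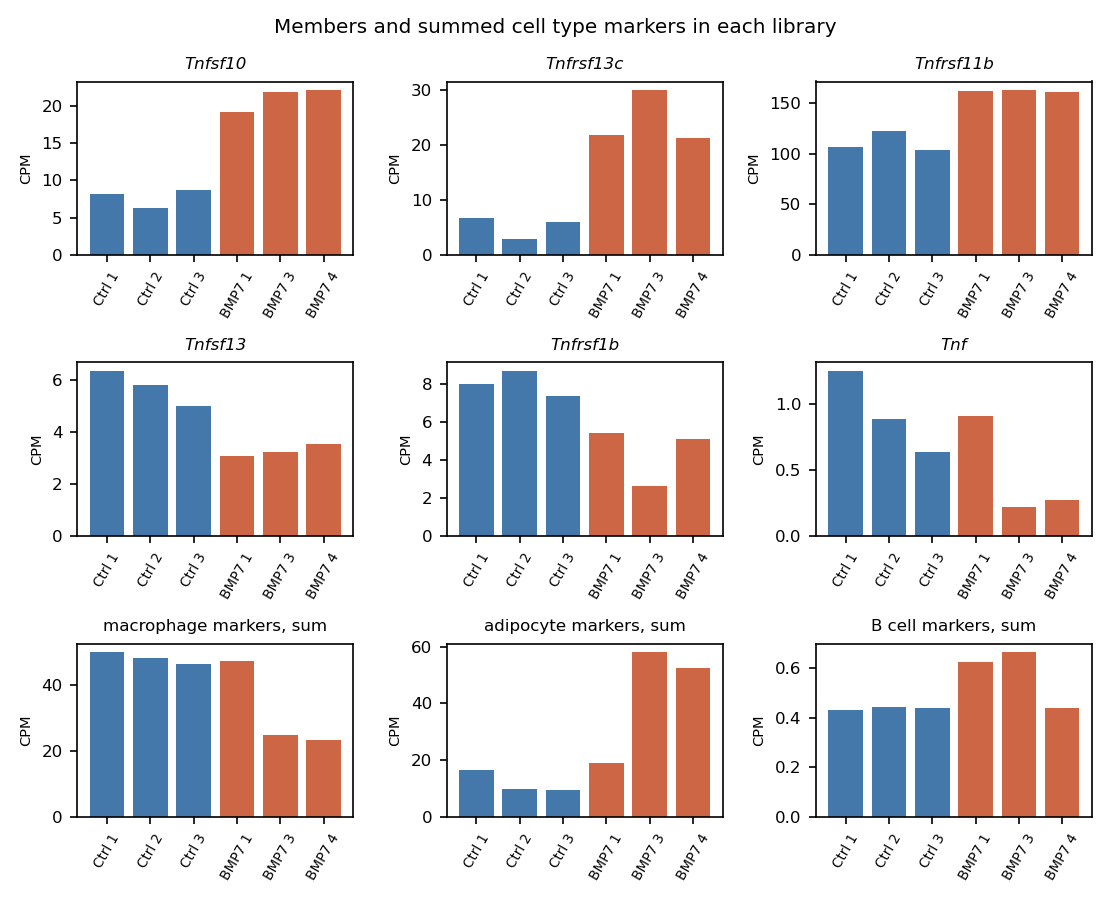
Level of 6 members and the summed level of the macrophage, adipocyte and B cell marker lists, in CPM, as 1 bar for each library and with each axis from 0. *Tnfsf10*, *Tnfrsf13c* and *Tnfrsf11b* were higher in all 3 BMP7 libraries, whereas macrophage and adipocyte markers moved in BMP7 replicates 3 and 4, and the B cell sum was at most 0.667 CPM.

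*Ltbr*, the lymphotoxin β receptor, was the most abundant of this group in Ctrl. Its level was 108, 110 and 105 CPM in Ctrl replicates 1, 2 and 3 and 120, 114 and 112 CPM in BMP7 replicates 1, 3 and 4. The groups did not overlap, and the log2 fold change of 0.10 (95% interval -0.03 to 0.22, adjusted p = 0.318) did not pass. For *Tnfrsf12a*, which encodes the TWEAK receptor Fn14, the log2 fold change was 0.27 (adjusted p = 0.141), and for *Tnfrsf19*, which encodes TROY, it was 0.37 (adjusted p = 0.428). Lower values that did not pass were found for *Cd27*, the receptor of CD70 (-0.54, adjusted p = 0.253), *Tnfrsf9*, which encodes 4-1BB (-0.49, adjusted p = 0.436), and *Eda2r*, a receptor of an ectodysplasin isoform (-0.83, adjusted p = 0.333). The intervals of these 3 genes ran from -1.15 to 0.07, from -1.27 to 0.29 and from -1.92 to 0.26, and include both no change and a 2-fold fall. The 6 members of this group that were not tested were *Cd40*, *Tnfrsf8*, *Tnfrsf11a*, *Tnfrsf13b*, *Tnfrsf14* and *Tnfrsf17*, with at most 9 counts in any library. *Tnfrsf17*, which encodes BCMA, had no count in any library.

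Of the 6 receptors with a death domain, 5 were tested and 1 rose, where 5.99% of all genes tested rose. *Tnfrsf25*, which encodes DR3, the receptor of TL1A, was at 3.80, 3.44 and 3.08 CPM in Ctrl replicates 1, 2 and 3 and at 5.16, 5.64 and 4.96 CPM in BMP7 replicates 1, 3 and 4. The groups did not overlap, and the log2 fold change was 0.61 (SE 0.17, 95% interval 0.25 to 0.98) with an adjusted p of 0.0261 in edgeR's test. The call was lost without Ctrl replicate 2 (0.61, adjusted p = 0.0787), Ctrl replicate 3 (0.54, adjusted p = 0.101) or BMP7 replicate 3 (0.55, adjusted p = 0.105), and over all alternatives the adjusted p was 0.0195 to 0.186. The highest of these belonged to the fit without BMP7 replicates 3 and 4, in which the log2 fold change was 0.58. Of the 7 other genes tested within 100 kb, *Plekhg5* rose as well (log2 fold change 0.55, adjusted p = 0.000166), beside 5.99% of all genes tested.

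*Tnfrsf1a* encodes TNFR1, the main signaling receptor of TNF, and was the most abundant receptor with a death domain. It was at 98.1, 111 and 116 CPM in Ctrl replicates 1, 2 and 3 and at 123, 120 and 110 CPM in BMP7 replicates 1, 3 and 4. The groups overlapped, and the log2 fold change was 0.12 (95% interval -0.03 to 0.27, adjusted p = 0.306). *Tnfrsf10b*, the mouse TRAIL death receptor, was at 18.6, 18.2 and 19.7 CPM in Ctrl replicates 1, 2 and 3 and at 20.8, 25.4 and 20.2 CPM in BMP7 replicates 1, 3 and 4. The BMP7 libraries lay above the Ctrl libraries by little, and the log2 fold change of 0.24 (95% interval 0.02 to 0.45, adjusted p = 0.146) did not pass. *Fas*, the receptor of FasL, and *Tnfrsf21*, which encodes DR6, each had a log2 fold change of -0.27, with adjusted p-values of 0.292 and 0.420. *Edar*, the ectodysplasin receptor, had at most 3 counts in any library.

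Among the 3 decoy or soluble receptors, *Tnfrsf11b* rose, where 5.99% of all genes tested rose. It encodes osteoprotegerin, a secreted receptor that binds RANKL and, more weakly, TRAIL. Its level was 107, 123 and 104 CPM in Ctrl replicates 1, 2 and 3 and 162, 163 and 161 CPM in BMP7 replicates 1, 3 and 4. All BMP7 libraries were above all Ctrl libraries and lay close together. The mean rose from 111 ± 10.04 CPM (SD, n = 3) to 162 ± 1.09 CPM (SD, n = 3), a log2 fold change of 0.55 (SE 0.067, 95% interval 0.40 to 0.69, adjusted p = 2.52e-05 in edgeR's test). It was 0.50 to 0.62 with any 1 library left out and 0.54 in BMP7 replicate 1 alone. *Tnfrsf22* and *Tnfrsf23*, the mouse TRAIL decoy receptors, gave log2 fold changes of 0.02 (adjusted p = 0.955) and 0.35 (95% interval 0.07 to 0.62, adjusted p = 0.0904). Near copies in another gene cover up to 43.0% of a *Tnfrsf22* transcript and up to 33.3% of a *Tnfrsf10b* transcript. These are the highest shares over each gene's transcripts, not shares of all exon bases counted. Counts of both genes are uncertain to an unknown extent. The adjusted p of *Tnfrsf23* ran from 0.00164 to 0.299 over the alternatives and was under 0.05 without Ctrl replicate 2 (log2 fold change 0.50) and without BMP7 replicate 4 (0.44). *Tnfrsf26*, a related receptor placed in no group, had 3 to 9 counts and was not tested.

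**Figure D3:**
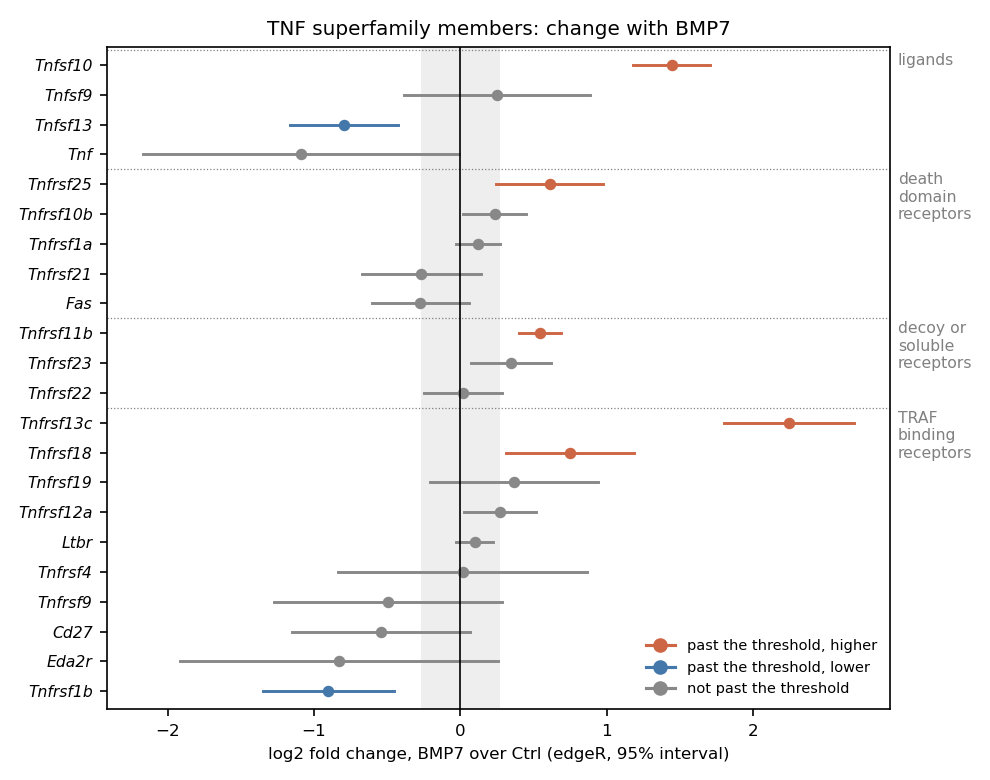
Log2 fold change of each tested member, BMP7 over Ctrl, from edgeR with its 95% interval, ordered within ligands and receptor groups. Colours mark the 5 members that passed the threshold upward and the 2 that passed it downward, and the grey band covers fold changes up to 1.2. The intervals of *Ltbr* and *Tnfrsf1a* are narrow around 0.10 and 0.12, whereas those of *Tnf* and *Eda2r* span more than 2 units.

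Receptors outnumbered ligands in messenger RNA. On the TPM scale, which allows for gene length, 3 receptors stood above 100 TPM in Ctrl, *Ltbr* at 125 ± 6.65 TPM, *Tnfrsf1a* at 114 ± 5.45 TPM and *Tnfrsf11b* at 108 ± 11.1 TPM (SD, n = 3 each). The libraries of *Tnfrsf1a* and *Tnfrsf11b* overlapped, while those of *Ltbr* lay above those of *Tnfrsf1a*. *Tnfrsf12a* followed at 51.1 ± 8.89 TPM without overlap with its neighbours, and the other 18 members tested were under 20 TPM. From *Tnfrsf23* (10.2 TPM) down to *Tnfrsf19* (0.907 TPM) each member overlapped the next in the order. With BMP7, *Tnfrsf11b* stood first at 145 ± 6.61 TPM, *Ltbr* was at 124 TPM and *Tnfrsf1a* at 114 TPM. The small difference of *Ltbr* was upward on the CPM scale and downward on the TPM scale. The receptors summed to 445 to 491 TPM in Ctrl and to 517 to 542 TPM with BMP7. The ligands summed to 17.2 to 22.4 TPM in Ctrl and to 18.5 to 23.0 TPM with BMP7, so their sum overlapped while its makeup did not. *Tnfsf10* made up 17.4 to 25.3% of the ligand sum in Ctrl and 48.8 to 51.0% with BMP7, and *Tnfsf13* made up 46.4 to 51.1% and 24.4 to 25.4%. The TPM of *Tnfsf13* divides by all its 1637 exon bases, though fragments on the 983 shared with *Tnfsfm13* were not counted. Its TPM is therefore likely too low, and the ligand sum and these shares are uncertain as a makeup of ligand messenger RNA.

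Set side by side as known pairs, ligand and receptor seldom both had enough counts to be tested. Of 28 ligand-receptor pairs listed, both genes were tested in 7, the receptor alone in 13, the ligand alone in 2 and neither in 6. *Tnfsf12*, the ligand of *Tnfrsf12a*, was not tested, and fragments on the 48.3% of its exon bases shared with *Tnfsfm13* were not counted. The TRAIL pairs were complete, with *Tnfsf10* at 4.02 TPM in Ctrl and 10.1 TPM with BMP7 beside *Tnfrsf10b* at 9.45 and 10.2 TPM. The decoys *Tnfrsf22* and *Tnfrsf23* together had 1.44 to 2.00 times the TPM of *Tnfrsf10b* in Ctrl and 1.63 to 1.87 times with BMP7, with overlap between the groups and with the same uncertainty of the counts. For the RANKL system, *Tnfsf11* had no count and *Tnfrsf11a* 0 to 3 counts in any library, while *Tnfrsf11b* was among the 3 most abundant members. For the BAFF and APRIL system, *Tnfrsf13c* rose while its ligand *Tnfsf13b* had 1 to 11 counts, and *Tnfsf13* was expressed while its receptors *Tnfrsf13b* and *Tnfrsf17* had at most 3 counts. The receptors *Tnfrsf18* and *Tnfrsf25* rose beside their ligands *Tnfsf18* and *Tnfsf15*, which had at most 2 and 5 counts in any library.

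**Figure D4:**
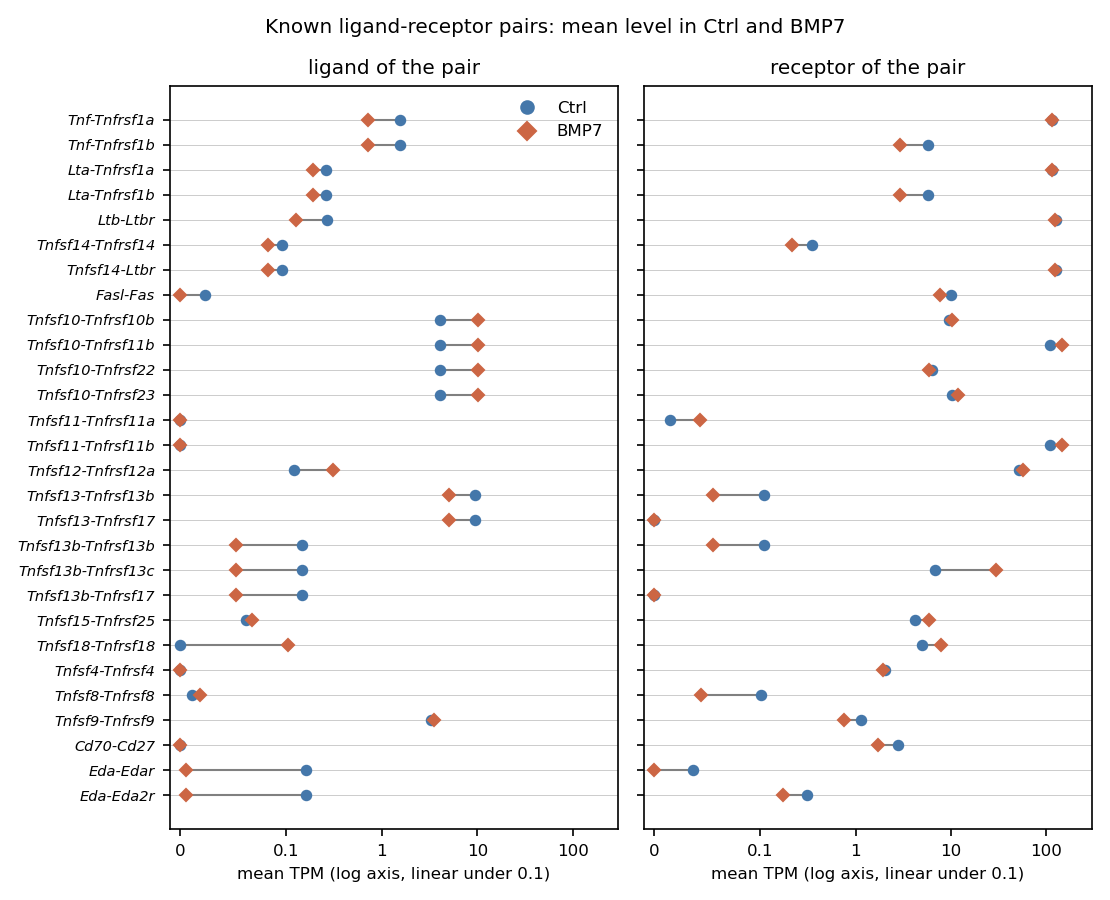
Mean TPM of the ligand (left) and receptor (right) of the 28 known pairs, with a circle for Ctrl and a diamond for BMP7, on an axis that is logarithmic above 0.1 TPM and linear under it. Ligands apart from *Tnfsf10*, *Tnfsf13*, *Tnfsf9* and *Tnf* lie near 0, while *Ltbr*, *Tnfrsf1a* and *Tnfrsf11b* lie above 100 TPM. *Tnfrsf13c* shows the widest step among the receptors that were tested.

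Genes that act below these receptors were read from 4 lists with 48 genes, of which 45 were tested. Of these 2 rose (4.44%, beside 5.99% of all genes tested) and 4 fell (8.89%, beside 5.38%). Their median log2 fold change was -0.03. Of the 17 proximal adaptors and regulators tested, which include the TRAF proteins, *Tradd*, *Fadd*, *Ripk1* and the ubiquitin ligases and deubiquitinases, 1 rose. *Tank*, a TRAF-binding regulator of NF-kB, was at 86.6, 95.02 and 92.4 CPM in Ctrl replicates 1, 2 and 3 and at 109, 122 and 106 CPM in BMP7 replicates 1, 3 and 4, without overlap. Its log2 fold change was 0.30 (SE 0.068, adjusted p = 0.00668), and it fell under the fold threshold without Ctrl replicate 1 (0.26) or BMP7 replicate 3 (0.24). Without BMP7 replicates 3 and 4 it passed neither the fold nor the p (0.26, adjusted p = 0.0654), and over all alternatives the adjusted p was 0.000566 to 0.0654. Of the 7 genes of the death arm tested, 1 fell. *Bid*, which links caspase-8 to mitochondria, was at 34.9, 39.0 and 35.7 CPM in Ctrl replicates 1, 2 and 3 and at 23.5, 23.8 and 24.4 CPM in BMP7 replicates 1, 3 and 4. The groups did not overlap, and its log2 fold change was -0.61 (SE 0.078, adjusted p = 4.07e-05). *Cflar*, which encodes the caspase-8 inhibitor c-FLIP, and the deubiquitinase *Cyld* passed the adjusted p but not the fold threshold, each with a log2 fold change of -0.25. Without BMP7 replicates 3 and 4 both passed the whole threshold, *Cflar* at -0.31 (adjusted p = 0.0328, range over the alternatives 0.00622 to 0.0660) and *Cyld* at -0.27 (adjusted p = 0.0434, range 0.00556 to 0.0543). The adaptor *Tradd* also passed in that fit, at 0.44 (adjusted p = 0.0219, range 0.00761 to 0.184).

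The kinase and NF-kB list had 16 genes, all tested, of which 3 fell, where 5.38% of all genes tested fell. *Nfkbie*, which encodes the NF-kB inhibitor IκBε, was at 17.6, 17.5 and 17.6 CPM in Ctrl replicates 1, 2 and 3 and at 11.2, 9.91 and 10.6 CPM in BMP7 replicates 1, 3 and 4. All BMP7 libraries were below all Ctrl libraries, with a log2 fold change of -0.74 (SE 0.10, adjusted p = 8.98e-05 in edgeR's test). *Nfkb2* and *Relb*, the partners of the non-canonical NF-kB pathway that BAFF and lymphotoxin β receptors use, had log2 fold changes of -0.38 (SE 0.062, adjusted p = 0.000422) and -0.38 (SE 0.10, adjusted p = 0.02003). The call of *Relb* was lost in 4 of the 6 fits that left out 1 library, those without Ctrl replicate 1 (-0.37), Ctrl replicate 2 (-0.39), Ctrl replicate 3 (-0.37) or BMP7 replicate 3 (-0.33). It was also lost without BMP7 replicates 3 and 4 (-0.29, adjusted p = 0.248), and over all alternatives the adjusted p was 0.0155 to 0.248. Exons of *Nfkb2* and *Bid* share 20.5% and 17.7% of their bases with genes on the opposite strand. Of the 5 genes for ligand shedding, *Adam10* rose, where 5.99% of all genes tested rose. This protease, which cleaves many surface proteins, was at 340, 351 and 321 CPM in Ctrl replicates 1, 2 and 3 and at 474, 508 and 485 CPM in BMP7 replicates 1, 3 and 4, a log2 fold change of 0.54 (SE 0.061, adjusted p = 1.19e-05). *Adam17*, the main protease that releases TNF, did not pass the threshold (log2 fold change -0.03, 95% interval -0.15 to 0.10). The 3 genes of the lists that were not tested were *Traf5*, *Edaradd* and *Ripk3*, with at most 14 counts in any library.

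**Figure D5:**
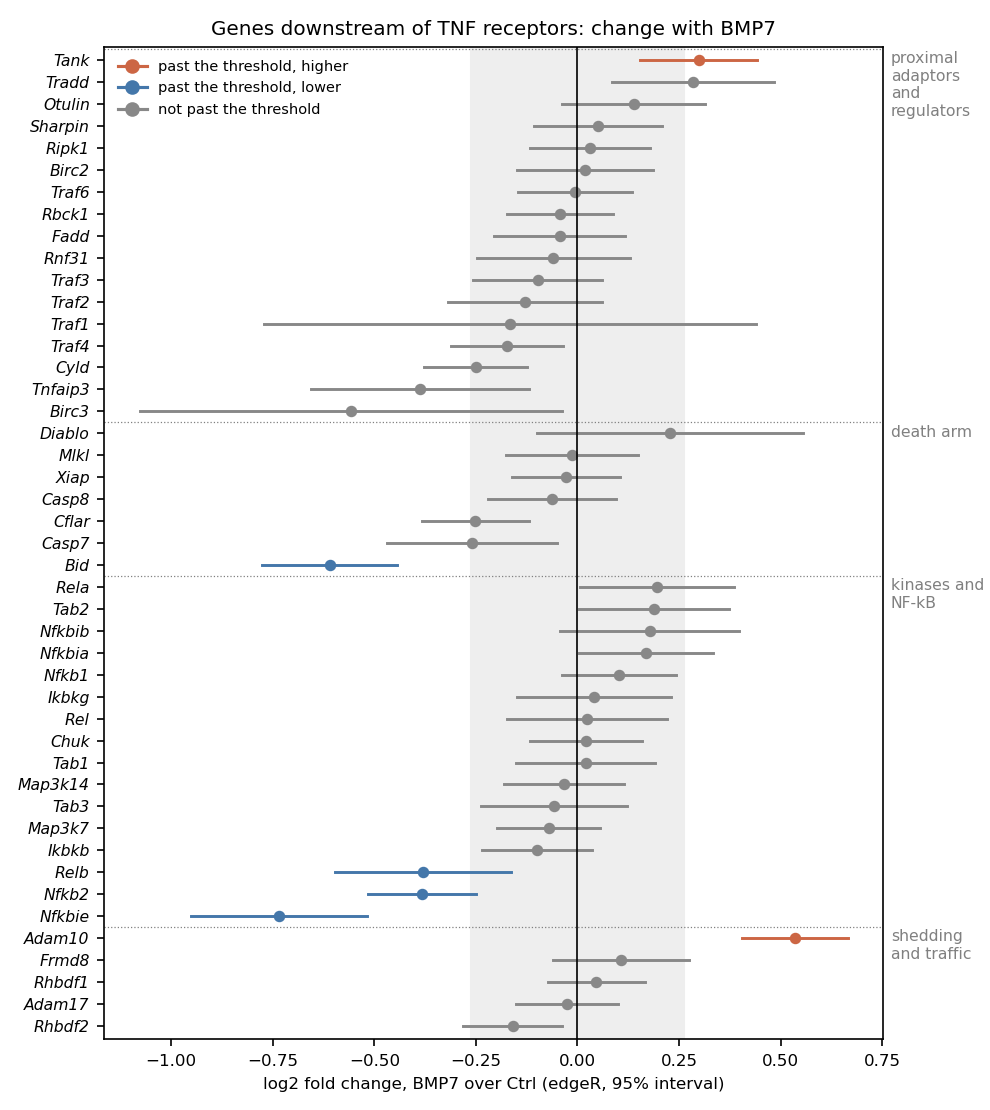
Log2 fold change, BMP7 over Ctrl, of the 45 tested genes that act below TNF receptors, from edgeR with 95% intervals, in 4 lists. *Tank* and *Adam10* passed the threshold upward and *Bid*, *Nfkbie*, *Nfkb2* and *Relb* downward, and most other genes lie within the grey band of fold changes up to 1.2.

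Receptors and ligands of the family whose symbols fall outside the rule were looked at as well. *Ngfr* had at most 2 counts and *Cd40lg* none in any library. *Relt*, a TRAF-binding receptor, was at 21, 36 and 27 counts in Ctrl replicates 1, 2 and 3 and at 40, 40 and 38 counts in BMP7 replicates 1, 3 and 4, with a log2 fold change of 0.68 (95% interval 0.04 to 1.31, adjusted p = 0.160) that did not pass.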

How the data were processed

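RNA was sequenced from 3 libraries of HC11 cells with BMP7 and 3 without it. The authors aligned the reads (subjunc), assigned fragments to gene names (featureCounts) and deposited raw counts. Per the file headers the counter was featureCounts 2.0.1 with an annotation named mm39, counting ignored strand and skipped fragments with more than 1 place or gene, so genes that share exons or have near copies lose counts. Per the labels Subread 2.0.3 was used with mm10 and mm39, and the methods name mm10, so these sources differ on the build. Coordinates are printed as deposited. The deposited start of *Tnfsf10* (27371177) lies outside its GRCm38.p6 promoter window (27316827-27317126), so these coordinates are not those of GRCm38 (mm10). The BMP7 columns are numbered 1, 3 and 4 and the sample titles 1, 2 and 3, so the columns were used as a group and not matched to single samples.

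Counts were analysed in R 4.3.3 with edgeR 4.0.16 (expression filter, 15733 genes; TMM; quasi-likelihood test of BMP7 against Ctrl; Benjamini-Hochberg over all genes tested). The threshold was the one the study states, a fold change above 1.2 with an adjusted p under 0.05. CPM are TMM-scaled without a prior count, TPM use the deposited exon lengths, standard errors are the log2 fold change over the square root of F, and the exact permutation test used log2 CPM with a prior count of 2. A count of 0 was read as up to 3 counts, which covers counting error only. Ligands, receptors, role groups, pairs, pathway lists and markers were chosen with earlier results of these data known. All tested members and the pathway genes past the threshold are named, members not tested are given by their counts, and neighbours and genes outside the symbol rule were added. Alternatives were RLE and upper-quartile scaling, DESeq2 1.42.0, no filter, at least 10 counts in every library, other thresholds, leaving out each library, a replicate block, a term for BMP7 replicates 3 and 4 and, chosen after seeing the data, leaving both out. In simulated counts for this comparison (15733 genes) the test recovered 73.1% of 67 genes changed 1.5-fold, 87.5% of 64 changed 2-fold and 100% of 63 changed 4-fold. It also called 10 unchanged genes. The simulated spread followed the trend over all genes, and changed genes were drawn at any level. These shares may therefore be too high for members with few counts. Shared exon bases came from the deposited annotation, and near copies from BLAST 2.17.0 among GENCODE transcripts of GRCm38 (at least 95% identity over 100 bases). *Tnfsfm13* covered up to 79.2% of a *Tnfsf12* transcript and up to 70.1% of a *Tnfsf13* transcript. Promoters are RefSeq sequences of GRCm38.p6, and no coordinates were converted between builds. Of the pathway and B cell lists, 1 gene each is not reported here.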

Additional observations from a re-analysis of the deposited data

How the results depend on the processing

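All 7 members past the threshold remained past it with RLE or upper-quartile scaling, DESeq2, a minimum of 10 counts in every library, or the adjusted p alone. No filter on low counts kept them and added *Tnfrsf23*, *Tnfrsf12a* and *Eda*, so 2 ligands were lower. At a 2-fold threshold *Tnfsf10* and *Tnfrsf13c* remained, which left 1 receptor higher, 0 ligands or receptors lower and 0 pathway genes in either direction. Without BMP7 replicates 3 and 4, *Tnfsf10*, *Tnfrsf11b* and *Tnfrsf13c* remained, 2 receptors were higher, and 0 ligands and 0 receptors were lower; the single BMP7 library was then assumed to vary like the Ctrl libraries. Leaving out 1 library gave 1 to 3 lower ligands, 2 to 5 higher and 0 to 1 lower receptors, and 1 to 4 higher pathway genes. *Eda* and *Tnf* make up the added ligands, and in those fits both passed the filter through their Ctrl counts alone. The count of higher pathway genes was 1 without Ctrl replicate 1 or BMP7 replicate 3 and 4 without BMP7 replicate 4. Lower pathway genes numbered 7 with upper-quartile scaling and 6 with the adjusted p alone.

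The columns share only replicate numbers 1 and 3. The deviations of these same-numbered libraries from their group means had correlations of -0.0142 and 0.116. So few pairs cannot show whether the numbers pair the samples. With a replicate block 8 members passed: *Tnfrsf23* (log2 fold change 0.60) and *Tnfrsf12a* (0.47) were added, *Tnfrsf25* (adjusted p = 0.0621) was lost, and 4 pathway genes were higher. In that fit Ctrl replicate 2 and BMP7 replicate 4 each formed a block alone. The BMP7 effect therefore rested on the libraries numbered 1 and 3 only. For 3 members that did not pass the threshold, the sign of the log2 fold change differed between alternatives. *Tnfrsf22* stayed near no change (-0.06 to 0.11), while *Tnfsf9* (-0.45 to 0.47) and *Tnfrsf4* (-0.30 to 0.58) had no settled direction. Members under about 10 counts per library could not be compared at this depth, and the cause of lost calls was not tested.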
